A study of Mus musculus with 12 samples.

Results

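The genes described here are 10 members of a single mRNA-decay pathway: the antiproliferative factors Btg1, Btg2, Tob1 and Tob2, and 6 subunits of the Ccr4-Not deadenylase complex, Cnot1, Cnot11, Cnot6, Cnot6l, Cnot7 and Cnot8. They were taken by name, through their Ensembl identifiers, from a table of 45669 rows, and each of the 10 matched 1 row. The list was selected on what these genes do and with earlier results of these same counts known, so the values below describe the genes and no test is built on the list.

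CD4+ T cells were taken by negative selection with magnetic beads from lymph nodes of C57BL6 mice aged 12 weeks. Rasgrp1 encodes a Ras exchange factor below the T cell receptor, and Anaef is a point-mutant allele of it present in all cells of the animal. Anaef/Anaef mice gave 4 total RNA libraries (replicates 5 to 8) and 2 libraries of ribosome-protected fragments, or RPF (3B and 4B). WT/WT mice gave 4 total RNA libraries (replicates 1 to 4) and 2 RPF libraries (1B and 2B). Each total RNA library was made from 20000 untreated cells, and each RPF library from a pool of 2 of the remaining samples, exposed to cycloheximide for 1 minute. The labels do not tie the pools to the total RNA samples or say that each sample is a separate animal, so the p-values cover the scatter of these samples alone, part of which may be technical.

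Messenger RNAs lose their poly(A) tails before they are destroyed, and Ccr4-Not is the main enzyme that shortens them. Cnot1 is the scaffold on which the other subunits sit; Cnot7 and Cnot8 are alternative copies of the Caf1 nuclease, and Cnot6 and Cnot6l of the Ccr4 nuclease, which binds the complex through Caf1. Btg and Tob proteins bind Caf1 and bring the complex to poly(A)-bound mRNA, and in mice Btg1 and Btg2 are known to keep naive T cells quiescent by holding mRNA levels down.

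Total counts ranged from 18580747 to 39467754 in Anaef total RNA, from 15326842 to 40046317 in WT total RNA, from 2868943 to 3464868 in Anaef RPF and from 4044330 to 7009342 in WT RPF. Mitochondrial transcripts took 17.02% to 25.01% of the counts in Anaef total RNA and 16.4% to 27.8% in WT total RNA, and under 1% in every RPF library. The 6 CD4 T cell markers summed to 2412 to 3829 CPM (counts scaled to library size) in Anaef total RNA and 2185 to 2507 CPM in WT total RNA, and all 6 were detected. In RPF they summed to 4600 and 4570 CPM in the Anaef pools and 3872 and 4306 CPM in the WT pools. Markers of other cell types were lower in sum than these in total RNA, but in RPF the plasma cell markers were above them in the WT pools. The 5 plasma cell markers summed to 105 to 177 CPM in Anaef and 323 to 509 CPM in WT total RNA, and the 5 myeloid markers to 13.0 to 20.97 CPM in Anaef and 24.5 to 27.98 CPM in WT. The sum of 7 B cell markers was 13.9 to 27.7 CPM in Anaef and 26.9 to 49.8 CPM in WT total RNA, and 19.2 to 36.3 CPM in Anaef and 42.7 to 83.7 CPM in WT RPF. All 7 had a negative log2 fold change in total RNA, 5 at an unadjusted p under 0.05, and none passed by edgeR. The 2 CD8 markers summed to 5.33 to 15.3 CPM in Anaef total RNA and 6.97 to 12.3 CPM in WT total RNA. In RPF the plasma cell markers summed to 1292 and 3922 CPM in the Anaef pools and 7496 and 8660 CPM in the WT pools. The 3 NK and gamma-delta markers summed to 8.20 to 17.2 CPM in Anaef and 8.07 to 16.5 CPM in WT total RNA. Cd8a, Lyz2, Klrb1c and Mzb1 had 0 counts in at least 1 Anaef total RNA library, and Sdc1 and Ncr1 in at least 1 library of each genotype. The part of these cells in the results below was not tested.

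The paralogs within each pair could be told apart by short reads. Over aligned coding bases, Btg1 and Btg2 were 68.7% identical, Tob1 and Tob2 69.1%, Cnot6 and Cnot6l 73.3%, and Cnot7 and Cnot8 70.8%. The longest identical coding stretch of each pair is shown because any read longer than it separates the pair. These stretches were 17 bases for Btg1 and Btg2, 16 for Tob1 and Tob2, and 20 for each of the other pairs (GENCODE M21 transcripts, GRCm38).
Btg1 and Btg2: gaggatggctccatctg
Tob1 and Tob2: tgtccagctctccctc
Cnot6 and Cnot6l: cataaagacttcaaggaact
Cnot7 and Cnot8: tcatttcacagtggttatga

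Other copies do share reads with some members. Of the 28-base windows of the coding sequence, 40.7% recur in other annotated genes for Btg1, 39.7% for Cnot8 and 13.2% for Cnot1, mostly in Gm14519, Gm18860 and Gm6158. The shares were 3.99% for Cnot7, where Zdhhc2 overlaps on the opposite strand, 2.08% for Tob1, and 0 for Btg2, Tob2, Cnot11, Cnot6 and Cnot6l. The sources used here do not say how the authors' counting treated such reads or whether it used strand, so the levels of Btg1, Cnot8 and Cnot1 carry that uncertainty, as do those of Tob2, Cnot1 and Cnot7 where a gene on the opposite strand overlaps 289, 132 and 247 of their exon bases.

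Btg1, on chromosome 10 (96617006 to 96622809, plus strand, GRCm38), had the most RNA per length of the 10 genes. Its level in total RNA was 164, 373, 208 and 259.9 CPM in Anaef replicates 5 to 8, against 127, 201, 168 and 153 CPM in WT replicates 1 to 4. The 3 highest libraries were Anaef, but Anaef replicate 5 lay below WT replicates 2 and 3, so the groups overlapped. The log2 fold change, Anaef over WT, was 0.63 ± 0.25 (SE, n = 4 each; edgeR quasi-likelihood test, adjusted p = 0.840 over 17876 genes), which did not pass the threshold of 0.05. Without Anaef replicate 6, the highest library, it was 0.38 (adjusted p = 0.927). In bulk libraries such as these, more transcript per cell and more cells of a type that holds it cannot be told apart.

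Ribosome footprints of Btg1 lay in a narrow range. They stood at 339.5 and 374 CPM in the Anaef pools, against 319 and 313 CPM in the WT pools. Both Anaef pools lay above both WT pools, by a log2 fold change of 0.17 ± 0.13 (SE, n = 2 each; edgeR, adjusted p = 0.637 over 9710 genes), which was 0.0959 without Anaef pool 4B.

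Part of the coding sequence of Btg1 recurs in 2 genes that had counts in RPF alone. Btg1-ps1 and Btg1-ps2, annotated as protein-coding despite their names, had 0 counts in all 8 total RNA libraries. Btg1-ps1 had 14 and 13 RPF counts in the Anaef pools and 13 and 25 in the WT pools, and Btg1-ps2 had 14 and 13 in the Anaef pools and 14 and 25 in the WT pools. Btg1 itself had 1184 and 1072 RPF counts in the Anaef pools and 2160 and 1291 in the WT pools. The stretches of at least 28 bases that Btg1's coding sequence shares with these genes, where a footprint of that length would match each of the 3, are shown with their coding positions (GENCODE M21, plus strand).
chr10:96617442-96617469, coding positions 118 to 145: ttcagccagagcctgcaggagctgctgg
chr10:96618332-96618363, coding positions 205 to 236: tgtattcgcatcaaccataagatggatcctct
chr10:96618404-96618438, coding positions 277 to 311: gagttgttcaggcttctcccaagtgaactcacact
The pseudogene Gm14519, which shares 197 of the 486 coding windows of Btg1, showed the opposite pattern, with 1203 counts over the 8 total RNA libraries and 0 over the 4 RPF libraries. That pattern was not particular to Gm14519. The pseudogene Gm6158, which shares windows with Cnot1, had 6414 counts in total RNA and 0 in RPF. Non-coding genes of other kinds that share windows with members showed it too. The antisense gene 4930513N10Rik had 249 counts in total RNA and 0 in RPF, and the lincRNA A230006K03Rik had 28 and 0.

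Btg2, the paralog of Btg1 and a gene induced by p53 and by mitogens, is on chromosome 1 (134075170 to 134079120, minus strand). In total RNA it had 51.2, 25.6, 24.8 and 32.1 CPM in Anaef replicates 5 to 8, against 33.4, 28.4, 44.1 and 31.4 CPM in WT replicates 1 to 4. The Anaef libraries included both the highest and the lowest value, and the log2 fold change was -0.04 ± 0.26 (SE, n = 4 each; edgeR, adjusted p = 0.992). In RPF it had 138 and 177 CPM in the Anaef pools, against 120.0 and 137 CPM in the WT pools. The Anaef pools lay just above the WT pools, with a log2 fold change of 0.29 ± 0.18 (SE, n = 2 each; edgeR, adjusted p = 0.553). It was 0.0933 without Anaef pool 4B, 0.46 without Anaef pool 3B and 0.18 without WT pool 1B.

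Tob1 and Tob2 join the same amino-terminal domain to a tail that binds cytoplasmic poly(A)-binding protein. Tob1 (chromosome 11, 94211454 to 94215495, plus strand) had 18.6, 10.0, 31.0 and 28.9 CPM in Anaef total RNA replicates 5 to 8, against 33.3, 24.5, 18.8 and 22.1 CPM in WT replicates 1 to 4. The ranges overlapped, and the log2 fold change of -0.16 ± 0.34 (SE, n = 4 each; edgeR, adjusted p = 0.989) was smaller than its error. Its footprints were few, 13.5 and 11.2 CPM in the Anaef pools, against 16.98 and 25.3 CPM in the WT pools, from 47, 32, 115 and 104 counts in 3B, 4B, 1B and 2B. Both Anaef pools lay below both WT pools, by a log2 fold change of -0.75 ± 0.29 (SE, n = 2 each; edgeR, adjusted p = 0.400). The value was -0.46 without WT pool 2B and -1.04 without WT pool 1B.

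Tob2 (chromosome 15, 81848272 to 81858796, minus strand) had 45.6, 16.1, 27.2 and 40.03 CPM in Anaef total RNA replicates 5 to 8, against 26.8, 26.9, 27.2 and 40.5 CPM in WT replicates 1 to 4. The Anaef libraries spanned the WT range on both sides. The log2 fold change was 0.09 ± 0.31 (SE, n = 4 each; edgeR, adjusted p = 0.989). Its RPF level was 20.1 and 18.8 CPM in the Anaef pools, against 19.2 and 22.3 CPM in the WT pools, which overlapped.

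Cnot1, the scaffold (chromosome 8, 95719451 to 95807464, minus strand), was among the steadiest of the 10 genes in total RNA. Its level was 342, 385, 333 and 334 CPM in Anaef replicates 5 to 8, against 365, 348, 351 and 352 CPM in WT replicates 1 to 4, which put the log2 fold change at -0.02 ± 0.12 (SE, n = 4 each; edgeR, adjusted p = 0.989). The groups overlapped, with Anaef replicate 6 the highest library. In RPF it had 581 and 543 CPM in the Anaef pools, against 484 and 473 CPM in the WT pools. Both Anaef pools were higher, by 0.23 ± 0.12 on the log2 scale (SE, n = 2 each; edgeR, adjusted p = 0.502).

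Cnot11, which with Cnot10 forms a module at the amino-terminal end of Cnot1, had the lowest mean total RNA per length of the 10 genes. It still stood above 54.1% of expressed protein-coding genes in Anaef and 55.0% in WT. It ranged from 11.5 to 16.7 CPM in Anaef total RNA and from 8.38 to 19.9 CPM in WT total RNA, and the Anaef range lay inside the WT range. Its footprints were 31.8 and 29.0 CPM in the Anaef pools, against 35.0 and 45.2 CPM in the WT pools. Both Anaef pools lay lower, by a log2 fold change of -0.39 ± 0.20 (SE, n = 2 each; edgeR, adjusted p = 0.493), which was -0.20 without WT pool 2B and -0.58 without WT pool 1B.

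Of the Ccr4-type nucleases, Cnot6 (chromosome 11, 49671503 to 49712723, minus strand) ranged from 31.1 to 39.9 CPM in Anaef total RNA and from 32.4 to 43.9 CPM in WT total RNA. Its footprints were 30.4 and 27.6 CPM in the Anaef pools, against 35.7 and 36.2 CPM in the WT pools. The Anaef pools were the lower ones, with a log2 fold change of -0.31 ± 0.18 (SE, n = 2 each; edgeR, adjusted p = 0.528).

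Cnot6l, the other Ccr4-type nuclease (chromosome 5, 96070333 to 96164171, minus strand), combined steady RNA with very few footprints. Its total RNA was 167, 167, 157 and 156 CPM in Anaef replicates 5 to 8, against 156, 159.7, 165 and 168 CPM in WT replicates 1 to 4, and the log2 fold change was -0.00 ± 0.11 (SE, n = 4 each; edgeR, adjusted p = 0.999). The 8 libraries lay within a narrow band and the groups overlapped fully. Its RPF level was 10.3 and 13.96 CPM in the Anaef pools, against 3.84 and 5.10 CPM in the WT pools, from 36 and 40 counts in Anaef 3B and 4B and 26 and 21 counts in WT 1B and 2B. Both Anaef pools lay above both WT pools, and the log2 fold change of 1.45 ± 0.35 (SE, n = 2 each) was the largest in size among the 10 genes. It did not pass the threshold (edgeR, adjusted p = 0.344, unadjusted p = 0.00501), but with no filter on low counts it did (adjusted p = 0.00820).

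The annotation of Cnot6l bears on how its footprints can be counted. Of its 1665 coding bases, 1538 (92.4%) are untranslated exon in another coding transcript of the gene, and 127 are not. Those 127 bases are contiguous in the transcript, near the 5′ end of the reading frame, and an intron splits them on the genome. The longer part, 112 bases at coding positions 16 to 127, is shown because a footprint on it lies in untranslated exon of no coding transcript. The other 15 bases, at coding positions 128 to 142, follow in the next exon. No motif is marked (chr5:96134011-96134122, minus strand, GENCODE M21, GRCm38).
Cnot6l coding-only run: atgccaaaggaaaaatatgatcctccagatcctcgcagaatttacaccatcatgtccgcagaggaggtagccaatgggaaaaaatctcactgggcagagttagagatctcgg
The deposited RPF counts are described as counts after masking, and the sources used here do not say what was masked. Whether the overlap plays a part in the low footprint count was not tested.

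Of the Caf1-type nucleases, Cnot7 (chromosome 8, 40492540 to 40515847, minus strand) had 97.7, 143, 68.4 and 90.4 CPM in Anaef total RNA replicates 5 to 8, against 76.2, 74.6, 64.8 and 72.6 CPM in WT replicates 1 to 4. The WT libraries were close together and Anaef replicate 7 lay among them, so the groups overlapped. The log2 fold change was 0.47 ± 0.21 (SE, n = 4 each; edgeR, adjusted p = 0.874), and 0.25 without Anaef replicate 6 (adjusted p = 0.952). Cnot7 had only 28 and 7 RPF counts in Anaef 3B and 4B and 66 and 27 in WT 1B and 2B, or 8.03 and 2.44 CPM in the Anaef pools, against 9.74 and 6.56 CPM in the WT pools. The pools overlapped, and the log2 fold change of -0.62 ± 0.54 (SE, n = 2 each; edgeR, adjusted p = 0.689) was decided by single pools: it was -0.05 without Anaef pool 4B, -1.75 without Anaef pool 3B and -0.30 without WT pool 1B. None of the coding bases of Cnot7 is untranslated exon in another coding transcript.

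Cnot8 (chromosome 11, 58104153 to 58118594, plus strand) stood the other way round, with little RNA and more footprints. Total RNA was 18.7, 7.71, 12.0 and 12.4 CPM in Anaef replicates 5 to 8, against 13.4, 16.3, 11.4 and 11.7 CPM in WT replicates 1 to 4, with the WT values inside the Anaef range. RPF was 46.2 and 46.4 CPM in the Anaef pools, against 57.4 and 70.7 CPM in the WT pools. Both Anaef pools were lower, with a log2 fold change of -0.47 ± 0.18 (SE, n = 2 each; edgeR, adjusted p = 0.402).

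**Figure D1:**
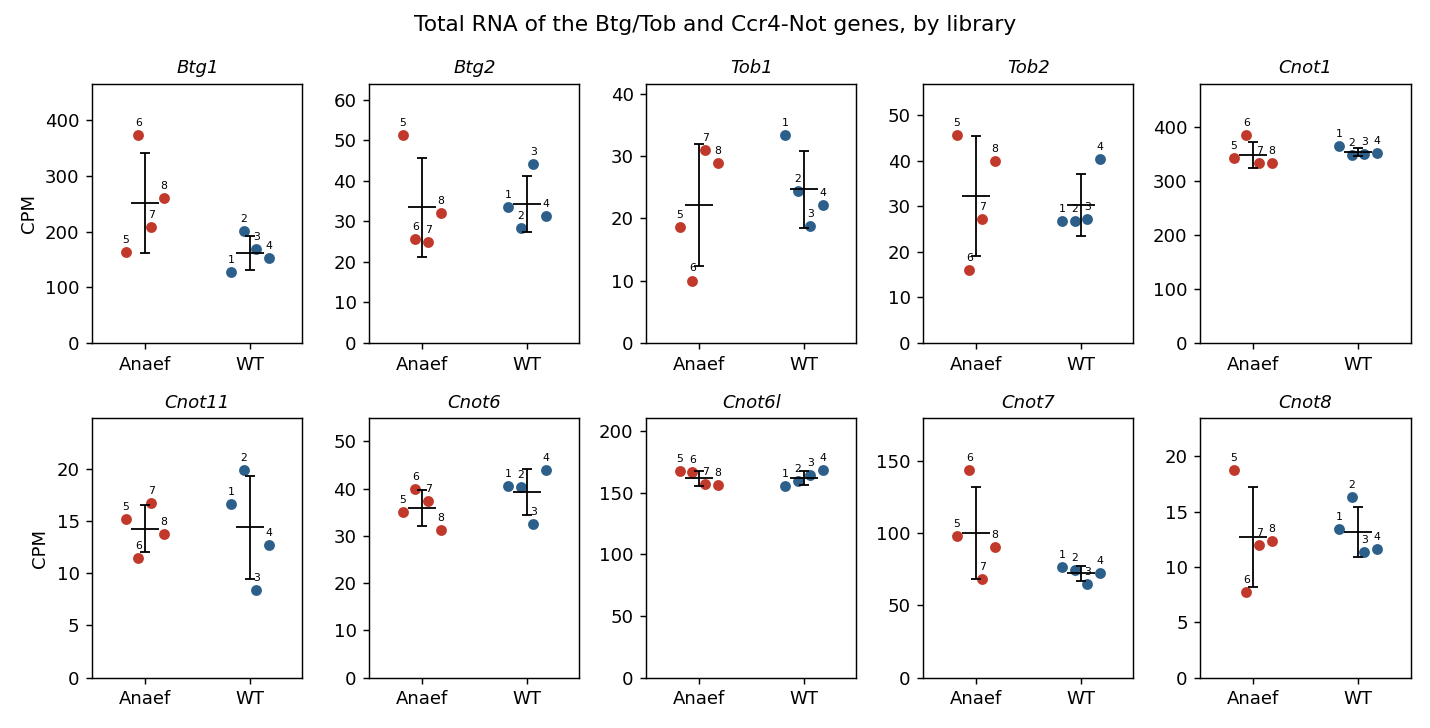
Total RNA of each gene in CPM (vertical axes from 0, scaled per gene) for the 4 Anaef and 4 WT libraries, with the replicate number above each point and the mean ± SD as a bar. The groups overlap for all 10 genes, and Anaef replicate 6 is the highest Anaef library for Btg1, Cnot1, Cnot6 and Cnot7 and the lowest for Tob1, Tob2, Cnot11 and Cnot8.

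The first comparison asked whether the mutant allele went with a change in RNA. None of the 10 genes passed in total RNA by edgeR, where 0.0224% of all 17876 genes did (4 genes, all lower in Anaef, among them the plasma cell gene Igha). At an unadjusted p under 0.05 there were 2 of the 10, Btg1 and Cnot7, and 1004 of all genes; DESeq2 and limma-voom called none of the 10. The median log2 fold change of the 10 was -0.02, against 0.01 over all genes tested. For all 10 the Anaef and WT libraries overlapped, where 1.58% of all genes had every Anaef library above every WT library and 2.01% had every one below.

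**Figure D2:**
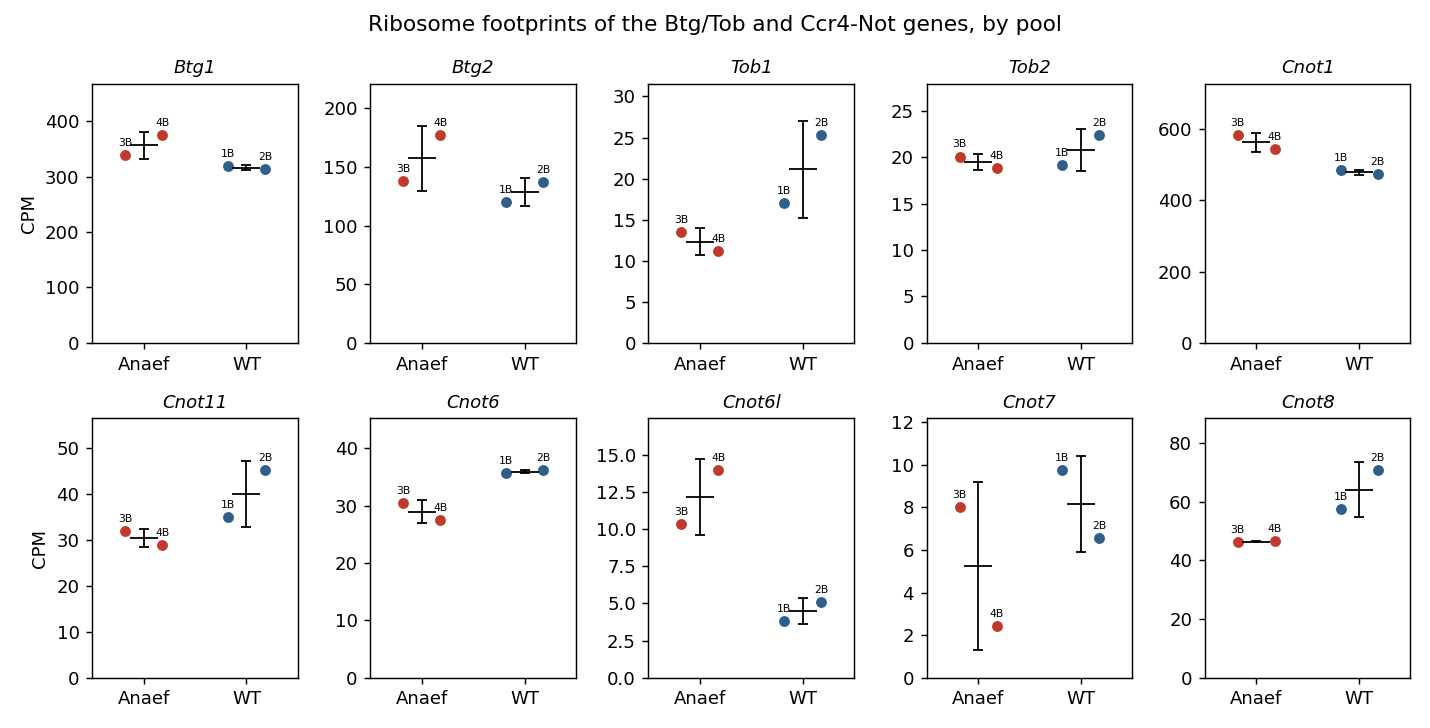
Ribosome footprints of each gene in CPM (vertical axes from 0, scaled per gene) for the 2 Anaef pools (3B, 4B) and the 2 WT pools (1B, 2B), with the mean ± SD as a bar. Both Anaef pools are above both WT pools for Btg1, Btg2, Cnot1 and Cnot6l and below them for Tob1, Cnot11, Cnot6 and Cnot8.

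Footprints were compared next. In RPF none of the 10 passed by edgeR, and neither did any other of the 9710 genes tested (0%; 3 of the 10 and 1151 of all genes had an unadjusted p under 0.05). DESeq2 called 197 genes, none of them among the 10, and limma-voom called 0 genes. The 2 Anaef pools lay above the 2 WT pools for 4 genes, Btg1, Btg2, Cnot1 and Cnot6l, where 22.3% of all genes did, and below them for another 4, Tob1, Cnot11, Cnot6 and Cnot8, where 22.5% did. The median log2 fold change of the 10 was -0.20, against 0.01 over all genes.

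The difference between the genotypes in footprints relative to RNA was tested as an interaction over the 12 libraries, which are those of the previous comparisons. It was 1.44 ± 0.25 on the log2 scale for Cnot6l (SE; edgeR, adjusted p = 0.838), whose p was the 2nd smallest of 19031 genes. For Cnot7 it was -1.10 ± 0.55 (SE; adjusted p = 1.00), but -0.55 without Anaef pool 4B and -2.25 without Anaef pool 3B, and the other 8 lay between -0.62 for Tob1 and 0.32 for Btg2. By edgeR none of the 10, and no gene at all (0%), passed; 1 of the 10 and 636 of all genes had an unadjusted p under 0.05. DESeq2 called 10 genes including Cnot6l (log2 difference 1.497, adjusted p = 0.00747), and limma-voom none of the 10.

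Footprints relative to RNA ranged over the members from a log2 ratio of -5.92 to 1.56, while the size of the difference between genotypes was at most 1.44. The ratio is RPF over total RNA on the log2 scale after TMM scaling; its median was -1.79 in Anaef and -1.62 in WT over all genes tested, and -0.49 in Anaef and -0.37 in WT over protein-coding genes, so single values are read against those. In each genotype 7 of the 10 genes passed by edgeR, 2 higher and 5 lower in RPF. Of all genes, 67.1% passed in Anaef (16.4% higher, 50.8% lower) and 74% in WT (19.6% higher, 54.4% lower). Of protein-coding genes alone, 57.9% passed in Anaef and 65.9% in WT, in either direction. Because the assays differ in library kit, priming and fragment size, the ratio is not a translation rate. The counts in it were not divided by length either, and the coding part of the exons differs between genes. Coding bases were 513 beside 5276 exon bases for Btg1, and 7334 beside 17169 for Cnot1. The order of the genes by this ratio is therefore not their order by footprints and RNA per length.

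Btg2 and Cnot8 were the genes that passed with a ratio above 0. The log2 ratio of Btg2 was 1.48 ± 0.31 in Anaef (SE, 2 pools and 4 libraries; edgeR, adjusted p = 0.00337) and 1.19 ± 0.22 in WT (adjusted p = 0.00160). For Cnot8 it was 1.12 ± 0.36 in Anaef (adjusted p = 0.0251) and 1.56 ± 0.22 in WT (adjusted p = 0.000382). Btg1 and Cnot1 did not pass, at -0.25 ± 0.31 and -0.06 ± 0.16 in Anaef and 0.24 ± 0.20 and -0.28 ± 0.13 in WT (SE). Cnot11 did not pass either, at 0.34 ± 0.29 in Anaef (SE; edgeR, adjusted p = 0.323) and 0.76 ± 0.33 in WT (adjusted p = 0.0713); in WT it passed with DESeq2, with RLE size factors, with protein-coding genes only and without WT total RNA replicate 2.

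Tob1, Tob2 and Cnot6 passed with ratios below 0, which in both genotypes lay above the median of all genes and below that of protein-coding genes. Their log2 ratios were -1.59 ± 0.51, -1.48 ± 0.45 and -1.06 ± 0.25 in Anaef, and -0.95 ± 0.30, -1.27 ± 0.26 and -0.84 ± 0.19 in WT (SE; edgeR, adjusted p between 0.00279 and 0.0226). The lowest ratios belonged to 1 copy of each nuclease pair. For Cnot6l the log2 ratio was -4.50 ± 0.24 in Anaef (adjusted p = 4.56e-06) and -5.92 ± 0.22 in WT (adjusted p = 2.74e-06), and for Cnot7 it was -4.96 ± 0.53 in Anaef (adjusted p = 9.75e-05) and -3.84 ± 0.25 in WT (adjusted p = 1.04e-05). Without Anaef pool 4B only Cnot6l, Cnot7 and Btg2 passed in Anaef, and without pool 3B those 3 and Cnot6.

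**Figure D3:**
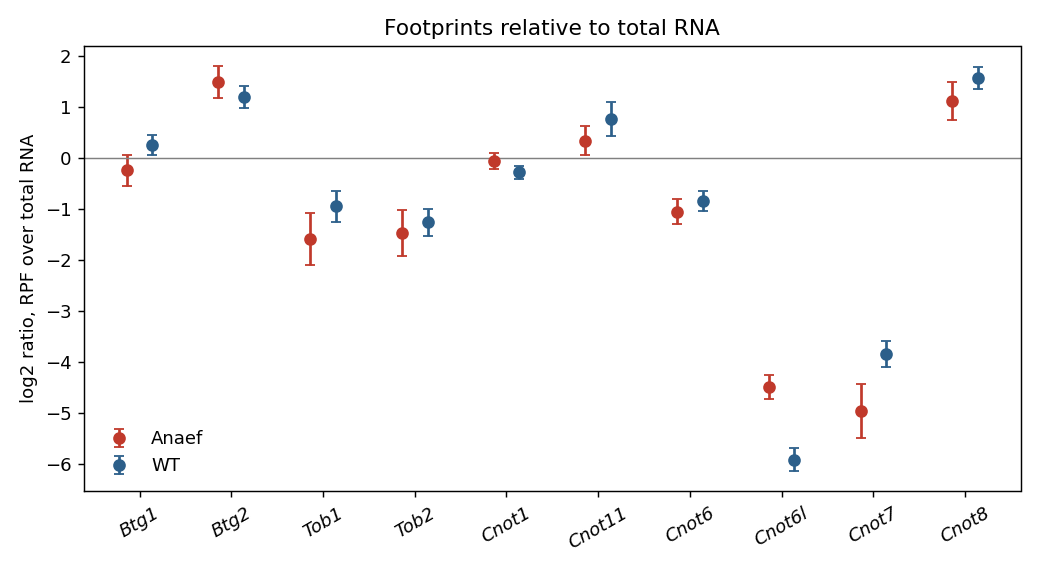
Log2 ratio of RPF over total RNA for each gene in Anaef (red, left) and WT (blue, right), with standard errors from 2 RPF pools and 4 total RNA libraries per genotype. Btg2 and Cnot8 lie above 1 and Cnot6l and Cnot7 below -3 in both genotypes.

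The share of coding bases that are untranslated exon elsewhere moved with this ratio over protein-coding genes with a mean of at least 10 CPM in total RNA. Among 3096 such genes with no such base the median log2 ratio was -0.29 in Anaef and -0.13 in WT; among 83 genes with over 90% it was -5.36 in Anaef and -5.68 in WT. Cnot6l, at 92.4%, lay near the median of the genes with a like share. Cnot1, at 37.3%, lay above the median of -0.78 in Anaef and -0.71 in WT for genes with 20% to 40%. Cnot7, at 0, lay far below the lower quartile of its class, which was -1.58 in Anaef and -1.41 in WT. The share is taken over coding transcripts only. It does not cover the 7 non-coding among the 11 transcripts of Cnot7, or the 247 exon bases that Zdhhc2 overlaps. The part of the annotation in these ratios was not tested.

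**Figure D4:**
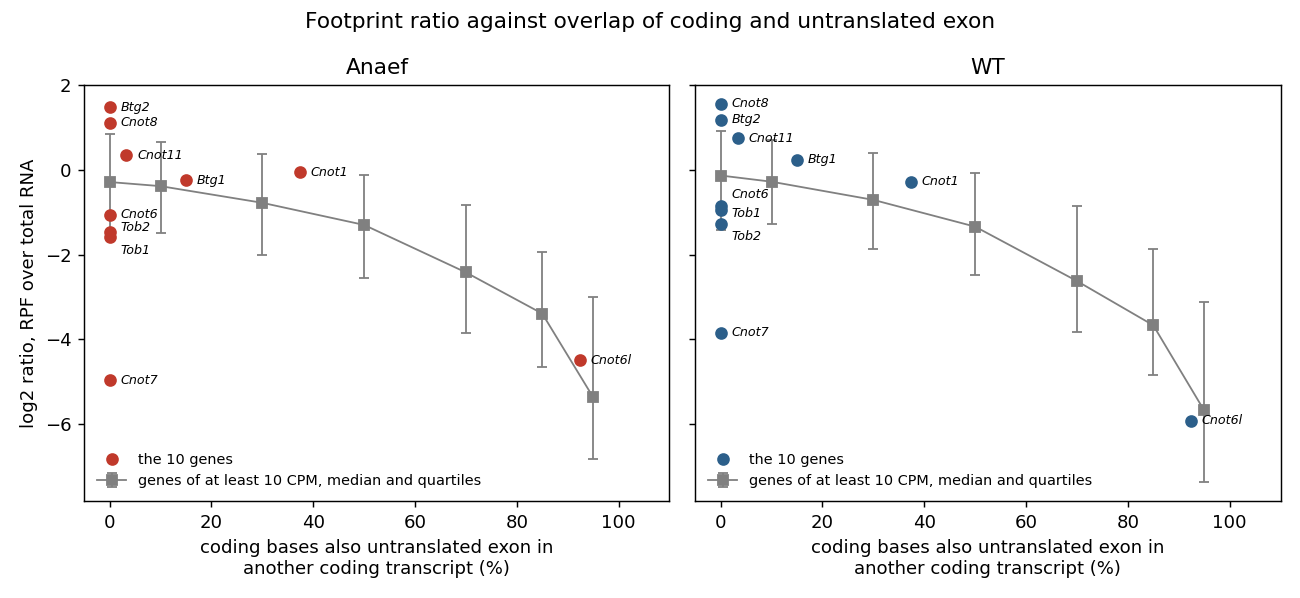
Log2 ratio of RPF over total RNA (vertical axis) against the percentage of coding bases that are untranslated exon in another coding transcript (horizontal axis), in Anaef (left) and WT (right); coloured points are the 10 genes and grey squares the median of protein-coding genes with a mean of at least 10 CPM per class, with quartiles. The medians decrease with the percentage; Cnot6l lies near the last of them, and Cnot7 lies far below the first.

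Levels were ordered per length, as CPM per kilobase of merged exon in total RNA and of merged coding sequence in RPF. In total RNA Btg1 led, with 47.6 ± 17.1 CPM per kilobase in Anaef and 30.8 ± 5.81 in WT (SD, n = 4 each), above 96.4% of protein-coding genes in Anaef and 94.6% in WT. Cnot1 came next with 20.3 in Anaef and 20.6 in WT, and its libraries stood apart from those of Btg1 in each genotype. Cnot7, Cnot6l and Btg2 averaged 17.2, 15.7 and 12.2 in Anaef, and 12.4, 15.7 and 12.5 in WT, and neighbours among them overlapped. Tob1, Cnot6, Cnot8 and Tob2 averaged 9.68, 5.43, 4.82 and 4.84 in Anaef, and 10.8, 5.94, 5.00 and 4.55 in WT; Tob1 stood apart from Cnot6 in WT, and the others overlapped with their neighbours. At the low end Cnot11 averaged 4.07 in Anaef and 4.10 in WT, and overlapped with Cnot8 and Tob2, its neighbours in Anaef and WT. With the longest transcript as length, Cnot1 (42.2) passed Btg1 (32.5) in WT.

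In RPF the order differed. Btg1 had 695 ± 47.6 CPM per kilobase in Anaef and 616 ± 7.52 in WT (SD, n = 2 each), and Btg2 had 332 ± 58.1 in Anaef and 272 ± 25.9 in WT, apart from each other and from all below. Cnot1 with 76.6 in Anaef and 65.2 in WT and Cnot8 with 52.8 in Anaef and 73.1 in WT were the next 2, and they overlapped in WT. Cnot11, Tob2, Cnot6 and Tob1 lay between 11.3 and 20.1 in Anaef and between 19.4 and 26.5 in WT. Last were Cnot6l, with 7.29 in Anaef and 2.68 in WT, and Cnot7, with 6.12 in Anaef and 9.53 in WT. A further length, chosen after seeing the data, was the coding bases that are untranslated in no coding transcript. Footprints on those bases alone were not counted, so the whole-gene footprints were divided by this length. Cnot6l would then stand at 95.6 in Anaef and 35.2 in WT, Cnot1 at 122 and 104, and Btg1 at 818 and 725.

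The share of each paralog in the RNA and in the footprints of its pair was compared next. Btg1 made up 67.8% of the Btg1 and Btg2 footprints in Anaef and 69.4% in WT, close to its 78.2% of the RNA in Anaef and 70.8% in WT. Tob1 made up 37.6% of the footprints of the Tob pair in Anaef and 48.8% in WT, against 65.9% of the RNA in Anaef and 69.8% in WT. Cnot6 made up 70.4% of the footprints of its pair in Anaef and 88.9% in WT, but 25.7% of the RNA in Anaef and 27.4% in WT. Cnot7 made up 10.1% of the footprints of its pair in Anaef and 11.7% in WT, but 77.1% of the RNA in Anaef and 71.3% in WT. These shares are per length and means over libraries. For the Cnot6 and Cnot7 pairs the RPF libraries did not overlap the total RNA libraries, whether by merged length, by the longest transcript (chosen after seeing the data) or by counts alone. The Cnot6 pair did depend on the coding length, as 92.4% of Cnot6l coding bases are untranslated exon in another coding transcript. Divided by the other coding bases alone, the whole-gene footprints of Cnot6l would be 95.6 CPM per kilobase in Anaef and 35.2 in WT. Those of Cnot6 were 17.3 and 21.5, so Cnot6 would then be the smaller part of the footprints as well. That holds only if the counted Cnot6l footprints lay on those bases, which was not tested. The split of the Tob pair depended on the length used for Tob2, whose merged exons span 6664 bases and whose longest transcript spans 4151. With the longest transcript Tob1 made up 54.9% of the RNA in Anaef and 59.2% in WT, and the total RNA and RPF libraries overlapped. By counts alone its share was 38.7% of the footprints in Anaef and 50.0% in WT, against 40.7% of the RNA in Anaef and 44.8% in WT, and the libraries overlapped too. Btg1 by counts made up 69.5% of the footprints of its pair in Anaef and 71.1% in WT, against 87.0% of the RNA in Anaef and 82.3% in WT, with no overlap.

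Pairs of members were compared over the 8 total RNA libraries, as a description. Pearson's r of log2 CPM ranged from -0.77 for Tob1 with Cnot6l to 0.72 for Btg1 with Cnot7, and was -0.51 for Btg1 with Btg2 and 0.47 for Tob1 with Tob2. With each genotype centred on its own mean, r was -0.80 for Tob1 with Cnot6l and 0.54 for Btg1 with Cnot7, and the highest was 0.88 for Cnot1 with Cnot7 (0.56 before centring). These libraries differ in depth and in their mitochondrial share, and Anaef replicate 6 lies at an end of the Anaef range for 8 of the 10 genes. Among 6611 protein-coding genes with a mean of at least 10 CPM, the patterns most like that of Btg1 were Cnbp (r = 0.96) and Cr1l (0.95), and those most opposed were Chtf8 (-0.96) and Gosr1 (-0.94). For Btg2 they were Dpy19l3 (0.96) and Sp3 (0.95), and Nras (-0.96) and Rap1b (-0.96). For Tob1 they were Dbnl (0.97) and Tbck (0.97), and Amd1 (-0.99) and Amd2 (-0.98). These genes were picked as the ends of 6611 correlations over 8 libraries, so large values of r come with the picking. No shared regulation was tested.

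The other Ccr4-Not subunits and Btg genes were set beside the members. Of 8 such genes Btg4 had 0 counts in all 12 libraries, and of the 7 tested in total RNA and 6 in RPF none passed between genotypes by edgeR (0 and 1 at an unadjusted p under 0.05). The median log2 fold change was 0.16 in total RNA and -0.01 in RPF. Against total RNA, 2 of 7 were higher in RPF and 4 lower in each genotype. For this and the lists below, the shares of all genes were 16.4% higher and 50.8% lower in Anaef, and 19.6% and 54.4% in WT. Those shares include genes that are not protein-coding. Of protein-coding genes alone 57.9% passed in Anaef and 65.9% in WT in either direction, and their split by direction was not computed. Cnot10, the partner of Cnot11, had a log2 ratio of 1.49 ± 0.25 in Anaef and 1.73 ± 0.18 in WT (SE; edgeR, adjusted p = 0.000946 and 8.53e-05). Cnot2, a subunit that docks at the carboxy-terminal end of Cnot1, had 4 RPF counts in Anaef and 4 in WT beside 10792 total RNA counts in Anaef and 8289 in WT, and 90.1% of its coding bases are untranslated exon in another coding transcript. Its neighbour Cnot3, with 65.0%, had a log2 ratio of -3.30 ± 0.20 in Anaef and -3.29 ± 0.21 in WT (SE).

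Btg3, a further Btg gene, had 15 RPF counts in Anaef and 72 in WT, a log2 fold change of -1.55 ± 0.63 (SE; edgeR, adjusted p = 0.412), and all of its 28-base coding windows recur in Gm7334. A further list held 10 other genes grouped under deadenylases and poly(A) binding, and the enzyme activity of their products was not examined. None of them passed between genotypes by edgeR in total RNA (1 at an unadjusted p under 0.05) or in RPF (0). Their smallest p in both assays belonged to Pabpc4, a cytoplasmic poly(A)-binding protein, at 13.95 ± 4.42 CPM in Anaef and 25.7 ± 9.63 CPM in WT total RNA (SD, n = 4 each). Its log2 fold change was -0.88 ± 0.33 in total RNA and -0.86 ± 0.45 in RPF (SE; edgeR, adjusted p = 0.840 and 0.494). Relative to total RNA, 1 of the 10 was higher and 5 lower in Anaef RPF, and 2 higher and 6 lower in WT RPF. The lowest was Noct, a rhythmic gene of the Ccr4 family, with a log2 ratio of -6.55 ± 0.25 in Anaef and -6.00 ± 0.22 in WT (SE; edgeR, adjusted p = 2.86e-06 and 2.74e-06).

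Decapping and decay factors act after the tail has been removed. None of the 9 passed between genotypes by edgeR in total RNA (0 at an unadjusted p under 0.05) or in RPF (2). The helicase Ddx6, which links Ccr4-Not to decapping, had footprints of 615 ± 32.1 CPM in Anaef and 451 ± 31.1 CPM in WT (SD, n = 2 each), and a log2 fold change of 0.45 ± 0.13 (SE; edgeR, adjusted p = 0.344). In Edc3, a decapping enhancer, the log2 fold change in RPF was 1.23 ± 0.45 (SE; edgeR, adjusted p = 0.383). Relative to total RNA, 2 of the 9 were higher and 5 lower in Anaef RPF, and 2 higher and 6 lower in WT RPF.

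Of 12 proteins that bring Ccr4-Not to chosen mRNAs, 11 matched a row and 10 were tested. None passed between genotypes by edgeR in total RNA or RPF (0 at an unadjusted p under 0.05 in each), and 1 was higher and 8 lower in RPF than in total RNA in each genotype. Tnrc6b, the scaffold of microRNA silencing, had a log2 ratio of -2.65 ± 0.19 in Anaef and -2.75 ± 0.15 in WT (SE; edgeR, adjusted p = 1.27e-05 and 6.16e-06). For Rc3h1, which encodes Roquin-1, it was -2.04 ± 0.25 in Anaef and -2.06 ± 0.24 in WT (SE; adjusted p = 0.000188 and 0.000154).

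Other genes tied to T cell quiescence were set beside the Btg genes. None of the 9 passed between genotypes by edgeR in total RNA (1 at an unadjusted p under 0.05) or RPF (2). Foxo1, a transcription factor of resting T cells, had 589 ± 97.1 CPM in Anaef and 449 ± 29.3 CPM in WT total RNA (SD, n = 4 each), and a log2 fold change of 0.39 ± 0.14 (SE; edgeR, adjusted p = 0.840). The interleukin-7 receptor gene Il7r had a log2 fold change of -0.53 ± 0.15 in RPF (SE; edgeR, adjusted p = 0.344). Klf2, which keeps naive T cells circulating, had 654 ± 19.1 CPM of footprints in Anaef and 539 ± 179 CPM in WT (SD, n = 2 each), and a log2 ratio to total RNA of 4.65 ± 0.41 in Anaef and 4.76 ± 0.35 in WT (SE; edgeR, adjusted p = 3.85e-05 and 1.56e-05). Of the 9, 4 were higher and 5 lower than total RNA in Anaef RPF, and 4 higher and 4 lower in WT RPF.

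Btg2 is also counted among genes that stimuli induce at once. Of 11 such immediate early genes 9 were tested in each assay and none passed between genotypes by edgeR (2 at an unadjusted p under 0.05 in total RNA and 1 in RPF). Egr1, a transcription factor downstream of Ras and ERK, had 70.1 ± 13.3 CPM in Anaef and 96.6 ± 6.52 CPM in WT total RNA (SD, n = 4 each), with a log2 fold change of -0.46 ± 0.16 (SE; edgeR, adjusted p = 0.836). Its RPF log2 fold change was -0.60 ± 0.21 (SE; edgeR, adjusted p = 0.378). Like Btg2, some were higher in RPF than in total RNA. In Anaef RPF 4 of 10 were higher and 2 lower, where 16.4% and 50.8% of all genes were. In WT RPF 5 were higher and 2 lower, where 19.6% and 54.4% of all genes were. Those shares include genes that are not protein-coding, so they are not the shares to expect for protein-coding genes. The median log2 ratio was -1.79 in Anaef and -1.62 in WT over all genes. Over protein-coding genes it was -0.49 in Anaef and -0.37 in WT. The log2 ratio of Junb, an AP-1 subunit, was 4.04 ± 0.40 in Anaef and 4.05 ± 0.28 in WT (SE; edgeR, adjusted p = 6.30e-05 and 1.32e-05).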

How the data were processed

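The authors deposited whole-number read counts per gene for 12 libraries, raw for total RNA and, per the file headers, after masking for RPF, with no normalization. TopHat 1.4.1 and the build GRCm38 are named in the submitters' processing notes; for the counting tool, annotation, strand setting and mask, the sources used here give nothing. Rows were named from GENCODE M21 (44772 of 45669 matched; 263 joined several identifiers).

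The test was that of edgeR 4.0.16 under R 4.3.3 (quasi-likelihood F test, TMM, filterByExpr, Benjamini-Hochberg at 0.05), total RNA and RPF apart, RPF against total RNA within a genotype, and the interaction over all 12 libraries. CPM use TMM-scaled library sizes, and log2 CPM a prior count of 2. Standard errors come from the fold change and its F statistic. Scripts were tested on simulated data. As alternatives the fits were repeated with RLE size factors, DESeq2 1.42.0, limma-voom 3.58.1, no filter (at least 1 count), nuclear protein-coding genes only, other lengths, and leaving out each library. Genes named beyond the 10 are, by rule, up to 4 per list with the smallest p in any comparison, and the most and least alike patterns. Rc3h1 was so named between genotypes in total RNA, and not for its printed ratio. The members and lists were chosen with earlier results of these data known. Library depths set the precision: genes with few RPF counts carry large errors. The result of 1 marker gene is not reported here.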

Additional observations from a re-analysis of the deposited data

Results flagged for a closer look

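Tob2 in WT total RNA was the only gene and group with a library far from the others. WT replicate 4 had 40.5 CPM, while the other 3 WT libraries lay between 26.8 and 27.2 CPM; the gap was 0.971 of the range, above Dixon's 95% critical value for 4 samples. Chance gives about 1 such result in 20 groups, and 20 groups of 4 libraries were examined. Anaef replicates 5 and 8 had 45.6 and 40.03 CPM.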

How the results depend on the processing

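The depth of the RPF libraries, at most 7009342 counts each, limits Cnot6l, Cnot7 and Tob1 most. Genes called between genotypes in total RNA, 4 by edgeR, were 120 with DESeq2, 2 with limma-voom, 0 with nuclear protein-coding genes only, and 0 to 3 with 1 library left out. In RPF, 0 became 197 with DESeq2, 514 with no filter, 6 with protein-coding genes only, and 0 to 211 with 1 pool left out (211 without Anaef pool 3B and 14 without Anaef pool 4B); with no filter 1 of the 10 genes, Cnot6l, was called. For the interaction, DESeq2 called 10 genes, 1 of them Cnot6l, and leaving out a library gave 0 to 1. RPF against total RNA with protein-coding genes only called 6819 genes in Anaef and 7874 in WT, where fewer genes were tested. Limma-voom called 7909 in Anaef, with 4 of the 10 genes in place of 7 (Tob1, Tob2 and Cnot8 lost); leaving out a library there left 3 to 7 of the 10. The cause of these changes was not tested. Where a pool was left out, the lone one is assumed to vary like the other groups.

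Directions held for Btg1, Cnot1, Cnot6 and Cnot7 in total RNA, for 9 of the 10 genes in RPF, and for all called ratios. Values near 0 changed sign. In total RNA Cnot6l was 0.00555 with DESeq2 and 0.00535 with RLE size factors, and Tob2 was -0.0153 with limma-voom. In Anaef the ratio of Cnot1 was 0.0567 with DESeq2 and 0.0566 with RLE, which moved the median ratio of all genes from -1.79 to -1.67. With 1 library left out, the log2 fold change in total RNA ranged from -0.32 to 0.10 for Btg2, -0.363 to 0.0862 for Tob1, -0.12 to 0.31 for Tob2, -0.20 to 0.18 for Cnot11, -0.30 to 0.12 for Cnot8 and -0.0207 to 0.0181 for Cnot6l. For Tob2 it ranged from -0.209 to 0.0192 in RPF and from -0.432 to 0.0182 in the interaction. In WT the ratio of Cnot11 passed with DESeq2, RLE and protein-coding genes only (0.83 in each) and without WT total RNA replicate 2 (0.94, adjusted p = 0.0368), that of Cnot1 passed without WT total RNA replicate 3 (-0.28, adjusted p = 0.0454), and that of Tob1 was lost without WT pool 1B (-0.69, adjusted p = 0.172); 6 to 8 of the 10 passed in WT with 1 library left out. No paired analysis was possible because Anaef and WT samples share no replicate numbers and the pools are not tied to total RNA samples.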
